A study of Mus musculus with 3 samples.

Results

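A list of 10 genes was followed across 3 RNA-seq libraries of cultured mouse cortical neurons. They are markers that are commonly used for meningeal fibroblasts and for mural cells, the pericytes and smooth muscle cells on the outside of small blood vessels, and they were given as a list without collagens. The 10 genes, among 54232 gene identifiers in each library, are Pdgfrb and Rgs5 (signalling), Dcn and Bgn (matrix proteoglycans), Aldh1a2 (retinoic acid synthesis), and Foxc1, Foxd1, Twist1, Prrx1 and Tbx18 (transcription factors). All 10 were found by symbol in each library, each under 1 identifier. The rule that lists them uses no measured value, but the list was drawn up with earlier results of these data known.

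The cells were wildtype cortical neurons of the CD1 mouse, and no age or day in culture is given in the labels. The IKVAV PA library came from neurons with a peptide amphiphile (a peptide joined to a fatty tail, which assembles into fibres), whose library name carries IKVAV, a short laminin sequence. The IKVAV PA + PEDOT-S library had a further component, called PS2 in its title and PEDOT-S_OH in its library name. These are taken here as 1 material, the sulfonated conducting polymer PEDOT-S. The PDL control library is labelled as the control, and PDL is not spelled out. The treatment field reads peptide amphiphile for all 3, the control too, so the groups were taken from titles and library names. Each group has 1 library, numbered repeat 3, so nothing below has a replicate check, no test between groups was made, and each difference is one between single libraries. Whether a library pools cells of several animals is not stated.

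The meninges cover the cortex, and their fibroblasts secrete matrix, retinoic acid and growth factors to the tissue beneath. Foxc1 is needed in the mouse for these membranes to form, and Aldh1a2 makes retinoic acid in them. Mural cells are recruited to capillaries by platelet-derived growth factor from the endothelium, which acts on the receptor encoded by Pdgfrb. Dissected cortex can carry some of these cells into a culture of neurons.

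The libraries held 124425958 (IKVAV PA), 79057998 (IKVAV PA + PEDOT-S) and 78993105 (PDL control) counts. Levels are given as normalised CPM, the count of a gene relative to the library total after trimmed-mean scaling, with 95% Poisson intervals where an interval is given. A gene was taken as higher or lower when the 95% counting interval of its ratio lay wholly beyond 1.5-fold, also where 1 library had 0 counts. Any other gene is said not to have passed the bound, which does not show that its levels were alike. The intervals hold counting error alone, and PCR copies of 1 molecule, which carry no molecular identifier here, count as separate reads. In bulk RNA, fewer cells of a type and less RNA per cell cannot be told apart.

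Of the genes lower with PEDOT-S than in the PDL control library, 4 (Bgn, Rgs5, Prrx1 and Foxc1) have an upstream window among the RefSeq promoter sequences (GRCm38.p6), which held 8 of the 10 genes. They are shown to put the start regions of genes with like differences side by side. Each sequence runs 5′ to 3′ on the strand of its gene and ends before the outermost start annotated in GENCODE M21. Capitals mark a match on either strand to any of 7 motifs searched, which were the E-box CANNTG, the forkhead site TGTTTAC, the T-box core GGTGTGA, the TATA box TATAAA, the GC box GGGCGG, the TEAD site GGAATG and the CArG box. The Bgn window is chrX:73483351-73483600 (+), that of Rgs5 is chr1:169655251-169655500 (+), that of Prrx1 is chr1:163313711-163313900 (-) and that of Foxc1 is chr13:31806396-31806632 (+).
Bgn: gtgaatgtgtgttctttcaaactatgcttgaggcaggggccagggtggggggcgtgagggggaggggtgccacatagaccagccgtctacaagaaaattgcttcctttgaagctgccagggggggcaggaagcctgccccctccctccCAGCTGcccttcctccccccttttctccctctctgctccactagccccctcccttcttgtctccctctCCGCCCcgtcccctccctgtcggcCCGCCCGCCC
Rgs5: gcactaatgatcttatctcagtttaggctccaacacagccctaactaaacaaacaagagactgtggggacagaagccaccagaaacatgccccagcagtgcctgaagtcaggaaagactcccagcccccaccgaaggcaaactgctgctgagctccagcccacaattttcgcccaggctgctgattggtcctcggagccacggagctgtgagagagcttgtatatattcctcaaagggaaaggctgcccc
Prrx1: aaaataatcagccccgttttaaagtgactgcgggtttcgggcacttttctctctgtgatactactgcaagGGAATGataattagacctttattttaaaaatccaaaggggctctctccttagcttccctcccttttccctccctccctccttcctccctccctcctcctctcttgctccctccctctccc
Foxc1: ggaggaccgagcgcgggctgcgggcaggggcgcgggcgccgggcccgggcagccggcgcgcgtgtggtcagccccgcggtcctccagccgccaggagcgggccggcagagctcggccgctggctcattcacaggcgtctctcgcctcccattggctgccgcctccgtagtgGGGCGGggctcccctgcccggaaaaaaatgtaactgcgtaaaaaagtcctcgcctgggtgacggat

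No motif was in all 4 windows. Bgn had 3 GC boxes, the last 2 of which overlap, and 1 E-box, Prrx1 had 1 TEAD site, Foxc1 had 1 GC box, and Rgs5 matched none of the 7. Over the full 250 bases upstream of the RefSeq start, a GC box was in 4 of the 8 genes with a window against 33.0% of 32536 windows. An E-box was in 4 of 8 against 66.2%, a TEAD site in 1 of 8 against 12.6% and a TATA box in 1 of 8 (Twist1) against 12.3%. The forkhead site, the T-box core and the CArG box matched none of the 8, against 3.17%, 3.33% and 1.48% of all windows. A match is a description of letters, and no binding was measured.

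The genes lay at low levels throughout. Their levels summed to 35.8 CPM in the PDL control library, 18.7 CPM in the IKVAV PA library and 11.3 CPM in the IKVAV PA + PEDOT-S library, from 2848, 2325 and 888 counts. Pdgfrb, Rgs5, Dcn and Bgn made up 89.2%, 92.5% and 87.4% of these sums. With Prrx1 they were the 5 genes with at least 1 CPM in a library, and the other 5 stayed below 1 CPM in all 3. The PDL control library had the highest level of 9 genes, and Foxd1 was highest in the IKVAV PA library. The lowest level was in the IKVAV PA + PEDOT-S library for Pdgfrb, Rgs5, Foxc1, Dcn and Bgn, and in the IKVAV PA library for Aldh1a2, Twist1, Prrx1 and Tbx18.

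**Figure D1:**
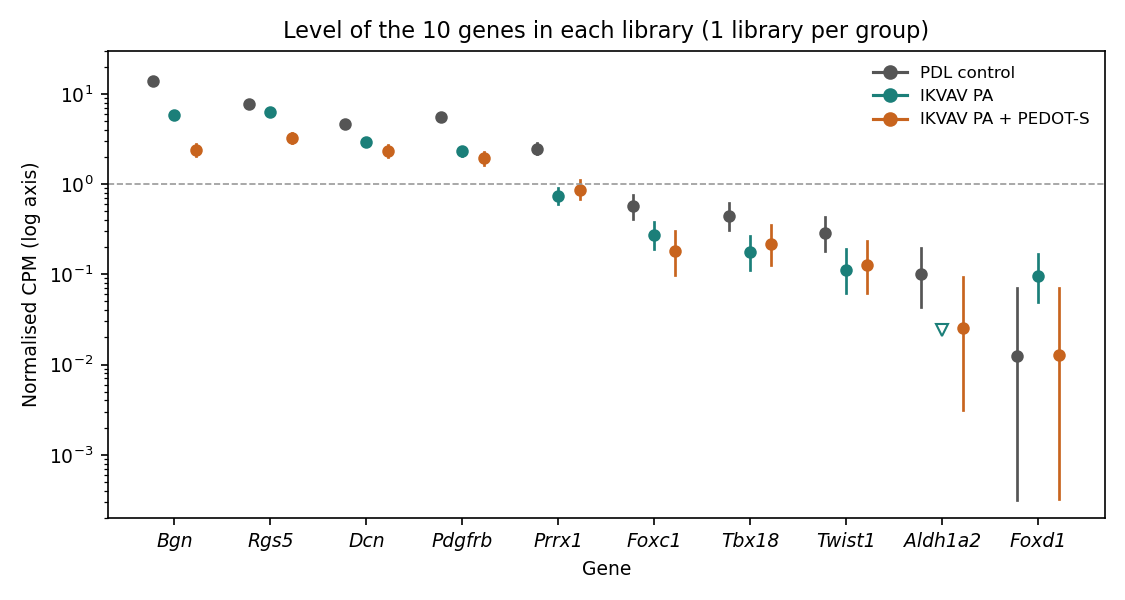
Normalised CPM (log axis) of each gene in each library, ordered by mean level. Lines are 95% Poisson intervals, the open triangle is the level of 3 counts for a gene with 0 counts, and the dashed line is 1 CPM. The PDL control point lies highest for 9 genes, from Bgn at 14.0 CPM to Aldh1a2 at 0.10 CPM, and Foxd1 has 1 count in that library.

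The marker label was looked at through other genes of the same cell types. Of 20 other mural cell genes 8 had at least 1 CPM in a library, and of 22 other meningeal fibroblast genes 11 did. Among all genes with at least 1 count, 13884 of 32633 did. The lists thus lie near the share over all genes, and these numbers do not bear out the label. The following genes were named after their values were seen, with counts in the order IKVAV PA, IKVAV PA + PEDOT-S, PDL control. Among the mural genes, Notch3, a receptor of the mural lineage, had 371, 205 and 480 counts, and Cspg4, which oligodendrocyte precursors also express, had 375, 85 and 551. Vtn, vitronectin, had 98, 39 and 40. The pericyte channel gene Kcnj8 had 0, 0 and 1 counts, its partner Abcc9 had 5, 3 and 13, and the pericyte gene Higd1b had 1, 2 and 1. Acta2, with 3297, 782 and 6257, and Mcam, with 442, 283 and 587, were well counted on that list. Among transporters on the fibroblast list, Slc13a3 had 44, 46 and 62 counts, Slc6a13 had 10, 0 and 7, Slc47a1 had 3, 3 and 0, and Slc22a6 had 0 in each library. Other genes of the fibroblast list had more, among them Fbln1 with 1575, 1204 and 963 counts, Pdgfra with 506, 142 and 853, and Ogn with 155, 58 and 158. A count of 0 allows up to 0.0241, 0.0383 and 0.0377 CPM, the level of 3 counts in each library. With some listed genes well counted and others at or near 0, the 10 genes are called by their names below and not by a cell type.

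Pdgfrb, the platelet-derived growth factor receptor beta (ENSMUSG00000024620, chr18:61045150-61085061, + strand, GRCm38), was at 5.60 CPM in the PDL control library, 2.30 CPM in the IKVAV PA library and 1.94 CPM in the IKVAV PA + PEDOT-S library. These levels rest on 446, 287 and 152 counts. It was lower than in the PDL control library in both scaffold libraries, 2.43-fold in IKVAV PA (counting interval 2.09 to 2.83) and 2.88-fold in IKVAV PA + PEDOT-S (2.39 to 3.49). The scaffold libraries lay 1.19-fold apart, with a log2 ratio of -0.25 (-0.54 to 0.04) that takes in no difference.

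Rgs5, a regulator that speeds the shut-off of G protein signals (ENSMUSG00000026678, chr1:169655501-169695813, + strand), followed another order. It stood at 7.66 CPM in the PDL control library, 6.28 CPM in IKVAV PA and 3.26 CPM in IKVAV PA + PEDOT-S, from 610, 783 and 255 counts. The IKVAV PA library lay nearer to the control than 1.5-fold (log2 ratio -0.29, interval -0.44 to -0.13). The IKVAV PA + PEDOT-S library was lower than the control by 2.35-fold (2.03 to 2.73) and lower than IKVAV PA by 1.93-fold (1.67 to 2.23). The ratio of Rgs5 to Pdgfrb counts within a library, which does not depend on the scaling, was 1.37 (1.21 to 1.55) in the PDL control library, 2.73 (2.38 to 3.13) in IKVAV PA and 1.68 (1.37 to 2.06) in IKVAV PA + PEDOT-S. The IKVAV PA interval lies apart from the other two, which overlap.

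Among the other 10 genes of the PDGF pathway, the ligand genes Pdgfa and Pdgfc did not pass the bound and the alpha receptor was lower. Pdgfa, with 26.1% of its exonic bases shared with other genes, was at 31.8 CPM in the PDL control, 33.0 CPM in IKVAV PA and 34.9 CPM in IKVAV PA + PEDOT-S, and Pdgfc at 12.1, 10.4 and 14.2 CPM. Of the 10, 3 were lower in IKVAV PA and 2 in IKVAV PA + PEDOT-S, and none was higher, with medians of -0.31 and -0.52. The lower ones in IKVAV PA were Pdgfra and the sphingosine phosphate receptors S1pr1 and S1pr3, all named after their values were seen. In IKVAV PA + PEDOT-S they were Pdgfra and S1pr3, while the interval of S1pr1 crossed the bound (log2 ratio -0.75, interval -1.03 to -0.46). Pdgfra, the alpha receptor, had log2 ratios of -1.40 and -2.56 and is also expressed by oligodendrocyte precursors. The co-receptor Nrp1 and the phosphatase Ptpn11 did not pass the bound. With a variation of 20% between cultures assumed on top of the counting error, 0 pathway genes stayed lower in IKVAV PA and 1 in IKVAV PA + PEDOT-S. Of the 9 genes of the RGS family branch of Rgs5, 6 had a ratio and none of these passed the bound in any of the 3 comparisons. All 6 had negative log2 ratios against the PDL control in both scaffold libraries, with medians of -0.49 and -0.07. Rgs4, at 257 CPM in the PDL control, had log2 ratios of -0.59 and -0.27.

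Bgn and Dcn encode biglycan and decorin, close relatives among the small leucine-rich proteoglycans that bind collagen and growth factors. Bgn (ENSMUSG00000031375, chrX:73483602-73495933, + strand) had 1112 counts in the PDL control library, 719 in IKVAV PA and 187 in IKVAV PA + PEDOT-S, which are 14.0, 5.77 and 2.39 CPM. Its 3 Poisson intervals do not overlap. It was lower than in the PDL control library by 2.42-fold in IKVAV PA (2.20 to 2.66) and by 5.84-fold in IKVAV PA + PEDOT-S (5.0 to 6.86). Between the scaffolds it was lower by 2.41-fold with PEDOT-S (2.05 to 2.85).

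Dcn (ENSMUSG00000019929, chr10:97479609-97518143, + strand) covered a narrower range, with 372, 362 and 182 counts in the same order. Its level of 4.67 CPM in the PDL control library compares with 2.90 CPM in IKVAV PA, where the interval crossed the bound (log2 ratio -0.69, interval -0.90 to -0.47), and with 2.33 CPM in IKVAV PA + PEDOT-S, which was lower by 2.01-fold (1.68 to 2.41). The scaffold libraries lay 1.25-fold apart for Dcn (1.04 to 1.5). There were 2.99 Bgn counts per Dcn count in the PDL control library (2.66 to 3.37), 1.99 in IKVAV PA (1.75 to 2.26) and 1.03 in IKVAV PA + PEDOT-S (0.833 to 1.27). These 3 intervals do not overlap, so the proteoglycan pair did not differ between libraries by 1 common factor. Bgn counts per Pdgfrb count were alike in the PDL control library (2.49, interval 2.23 to 2.79) and IKVAV PA (2.51, 2.18 to 2.88). In IKVAV PA + PEDOT-S there were 1.23 (0.988 to 1.53).

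**Figure D2:**
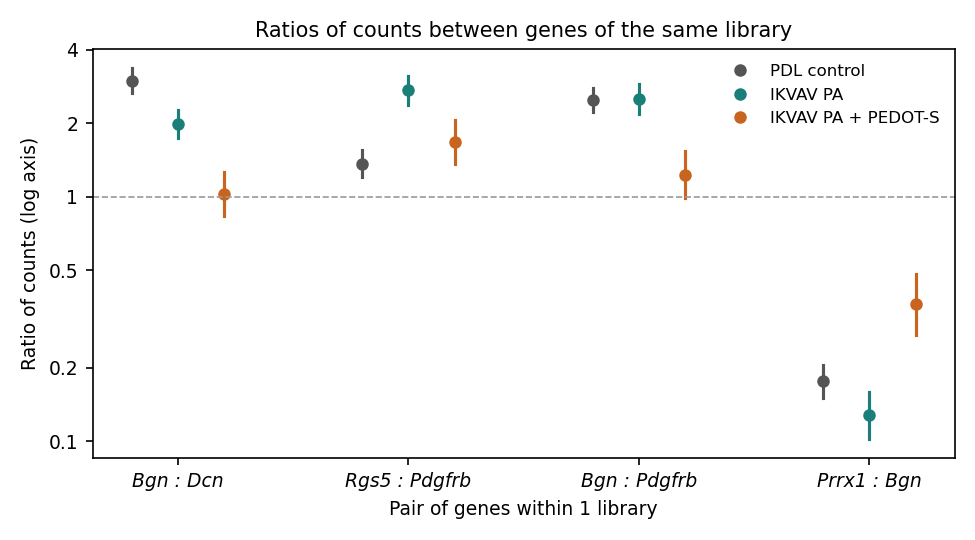
Ratio of the counts of 2 genes within the same library (log axis), with exact 95% counting intervals. Bgn to Dcn steps from 2.99 in the PDL control library to 1.03 in IKVAV PA + PEDOT-S, and Rgs5 to Pdgfrb is highest in IKVAV PA at 2.73.

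Other small leucine-rich proteoglycans numbered 13. Of these, 3 were lower in IKVAV PA and 4 in IKVAV PA + PEDOT-S than in the PDL control, and none was higher, with medians of -0.18 and -1.12 over the 12 with a ratio. Fmod, fibromodulin, was at 3.45 CPM in the PDL control library, 1.56 CPM in IKVAV PA and 0.767 CPM in IKVAV PA + PEDOT-S, and was lower in all 3 comparisons. Prelp and Omd, named after their values were seen, were lower in both scaffold libraries, Omd with 10 counts in the PDL control library and 0 in the others. Ogn, osteoglycin, passed the bound in IKVAV PA + PEDOT-S (log2 ratio -1.42) and not in IKVAV PA (-0.67), while Tsku, a secreted signalling modulator of the family, stood at 12.3, 12.2 and 14.9 CPM and did not pass the bound. With the assumed variation 1 and 2 of these proteoglycan genes stayed lower.

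Aldh1a2, the retinaldehyde dehydrogenase of the meninges (ENSMUSG00000013584, chr9:71215789-71296243, + strand), was almost absent from the counts. It had 8 counts in the PDL control library, 2 in IKVAV PA + PEDOT-S and 0 in IKVAV PA. Its level in the PDL control library was 4.17 times the level of 3 counts in IKVAV PA. The exact interval of 0 against 8 counts put IKVAV PA lower by 2.67-fold or more, counting error of both libraries included. The ratio of IKVAV PA + PEDOT-S to control had an interval from -5.25 to 0.35 on the log2 scale, so no difference was detectable at this depth. Of 18 other retinoid genes, none was lower or higher in IKVAV PA. In IKVAV PA + PEDOT-S 1 was lower and none higher, namely Aldh1a3, another enzyme that makes retinoic acid, named after its values were seen (8.03 CPM in the PDL control, 9.08 CPM in IKVAV PA, 4.32 CPM in IKVAV PA + PEDOT-S). Cyp26b1, which degrades retinoic acid, was at 16.3, 16.1 and 18.9 CPM in that order. Aldh1a3 did not stay lower with the assumed variation.

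The transcription factors were weakly expressed. Prrx1, a paired-type homeobox factor of limb and craniofacial mesenchyme (ENSMUSG00000026586, chr1:163245119-163313710, - strand), was the most abundant of them at 2.46 CPM in the PDL control library, with 196 counts. It stood at 0.738 CPM in IKVAV PA (92 counts) and 0.869 CPM in IKVAV PA + PEDOT-S (68 counts), lower by 3.33-fold (2.59 to 4.32) and 2.83-fold (2.14 to 3.79). The log2 ratio between the scaffold libraries was 0.23 (-0.24 to 0.70). The count of Prrx1 per Bgn count was 0.128 (0.102 to 0.159) in IKVAV PA, 0.176 (0.151 to 0.205) in the PDL control and 0.364 (0.271 to 0.482) in IKVAV PA + PEDOT-S.

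Foxc1, the forkhead factor of the developing meninges (ENSMUSG00000050295, chr13:31806633-31812476, + strand), had 45, 34 and 14 counts in the PDL control, IKVAV PA and IKVAV PA + PEDOT-S libraries, or 0.565, 0.273 and 0.179 CPM. It was lower in IKVAV PA + PEDOT-S by 3.16-fold (1.70 to 6.23), and in IKVAV PA the interval of its 2.07-fold lower level crossed the bound (1.3 to 3.33). Twist1, a basic helix-loop-helix factor of mesenchyme (ENSMUSG00000035799, chr12:33957671-33959829, + strand), had 23, 14 and 10 counts, and its log2 ratios of -1.36 (-2.43 to -0.34) and -1.18 (-2.41 to -0.05) against the control did not pass the bound. Tbx18, a T-box factor of mural and epicardial lineages (ENSMUSG00000032419, chr9:87702800-87731260, - strand), had 35, 22 and 17 counts, with log2 ratios of -1.32 (-2.16 to -0.51) and -1.02 (-1.95 to -0.14). Of its exonic bases 20.6% are shared with D030062O11Rik, so its value is uncertain. Twist1 and Tbx18 had intervals below no difference against the control that reached inside the bound, and neither was separated between the scaffolds.

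Foxd1, a forkhead factor of stromal and meningeal progenitors (ENSMUSG00000078302, chr13:98354242-98359305, + strand), was the exception in direction. It had 12 counts in IKVAV PA (0.0963 CPM) and 1 count in each of the other libraries (0.0128 CPM in IKVAV PA + PEDOT-S and 0.0126 CPM in the PDL control). The ratio of IKVAV PA to the PDL control was 7.67 with an interval from 1.13 to 328, which does not pass the bound. The ratio of 1 count to 1 count is not given.

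Of 22 other mesenchymal transcription factors, 3 were lower in IKVAV PA, and 2 were lower and 1 higher in IKVAV PA + PEDOT-S. The medians over the 17 and 18 with a ratio were -0.65 and -0.34. The most abundant were Zeb1 and Zeb2, which are also expressed in neural cells. Zeb1 was lower in IKVAV PA (log2 ratio -0.66) and did not pass the bound in IKVAV PA + PEDOT-S (-0.47), and Zeb2 passed it in neither (0.12 and 0.12). Zeb1 did not stay lower with the assumed variation. The other lower genes were Foxf2 in both libraries, Osr1 in IKVAV PA and Tbx15 in IKVAV PA + PEDOT-S, each with at most 38 counts in a library, and the higher one was Tbx3, with 9 counts against 0, all named after their values were seen. Some relatives of the listed factors were near the floor. In the order PDL control, IKVAV PA, IKVAV PA + PEDOT-S, Foxc2 had 1, 0 and 6 counts, Twist2 8, 5 and 5, and Prrx2 5, 5 and 3. Tbx15, a T-box gene like Tbx18, had 21, 38 and 4. Twist2 shares exonic bases with another gene (46.5% of them), so its count is uncertain. These relatives were named after their values were seen.

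Per kilobase of merged exon, the scale on which levels can be compared between genes, the order of the genes differed between libraries. In the PDL control library the level was highest for Bgn at 2.29 CPM per kilobase (2.16 to 2.43), then Rgs5 at 1.68 (1.55 to 1.82), Pdgfrb at 1.02 (0.929 to 1.12) and Dcn at 0.800 (0.721 to 0.886), each apart from its neighbour. Prrx1 at 0.222 and Twist1 at 0.177 CPM per kilobase did not differ beyond their intervals. In IKVAV PA the level of Rgs5 was highest at 1.38 CPM per kilobase (1.29 to 1.48), above Bgn at 0.946 (0.878 to 1.02), while Dcn at 0.498 (0.448 to 0.552) and Pdgfrb at 0.420 (0.373 to 0.472) overlapped. In IKVAV PA + PEDOT-S the level of Rgs5 was again highest at 0.717 CPM per kilobase (0.631 to 0.810), and Dcn at 0.398, Bgn at 0.392 and Pdgfrb at 0.354 lay within each other's intervals. Bgn thus went from the top of the order in the PDL control library to a level not separable from Dcn and Pdgfrb.

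In IKVAV PA against the PDL control, 4 of the 10 genes were lower, namely Pdgfrb, Bgn, Prrx1 and Aldh1a2, and none was higher. The same rule took 3.42% of the 13884 genes with at least 1 CPM as lower and 0.540% as higher, and 2.59% and 1.48% of the 32633 genes with at least 1 count. The median log2 ratio over the 10 genes, with Aldh1a2 at its bound, was -1.28, with 9 negative, beside 0.00020 over the 13884 genes and 0.02 over the 25861 genes with a ratio. With the assumed variation of 20%, 2 of the 4 stayed lower, Prrx1 and Aldh1a2. Aldh1a2 rests on 0 against 8 counts and has no ratio, so the near end of its interval was widened directly, unlike that of the other genes.

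In IKVAV PA + PEDOT-S against the same PDL control library, 6 of 10 were lower, namely Pdgfrb, Rgs5, Foxc1, Dcn, Bgn and Prrx1, and none was higher. The background was 3.76% lower and 0.447% higher among genes with at least 1 CPM, and 3.32% and 0.757% among genes with at least 1 count. All 9 genes with a ratio were negative with a median of -1.5, beside -0.0025 over the 13884 genes and -0.03 over the 23889 with a ratio. With the assumed variation 3 of the 6 stayed lower, Pdgfrb, Bgn and Prrx1, and with a bound of 2-fold Foxc1 and Dcn did not.

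Between the scaffolds, 2 of 10 were lower with PEDOT-S, Rgs5 and Bgn, and none was higher. The background was 2.02% lower and 0.331% higher among genes with at least 1 CPM, and 3.44% and 0.705% among genes with at least 1 count. The median over 9 genes was -0.32, with 6 negative and 3 positive (Twist1, Prrx1 and Tbx18), beside 0.0070 over the 13884 genes and -0.04 over the 25645 with a ratio. With a bound of 2-fold only Bgn stayed lower, and with the assumed variation neither did.

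**Figure D3:**
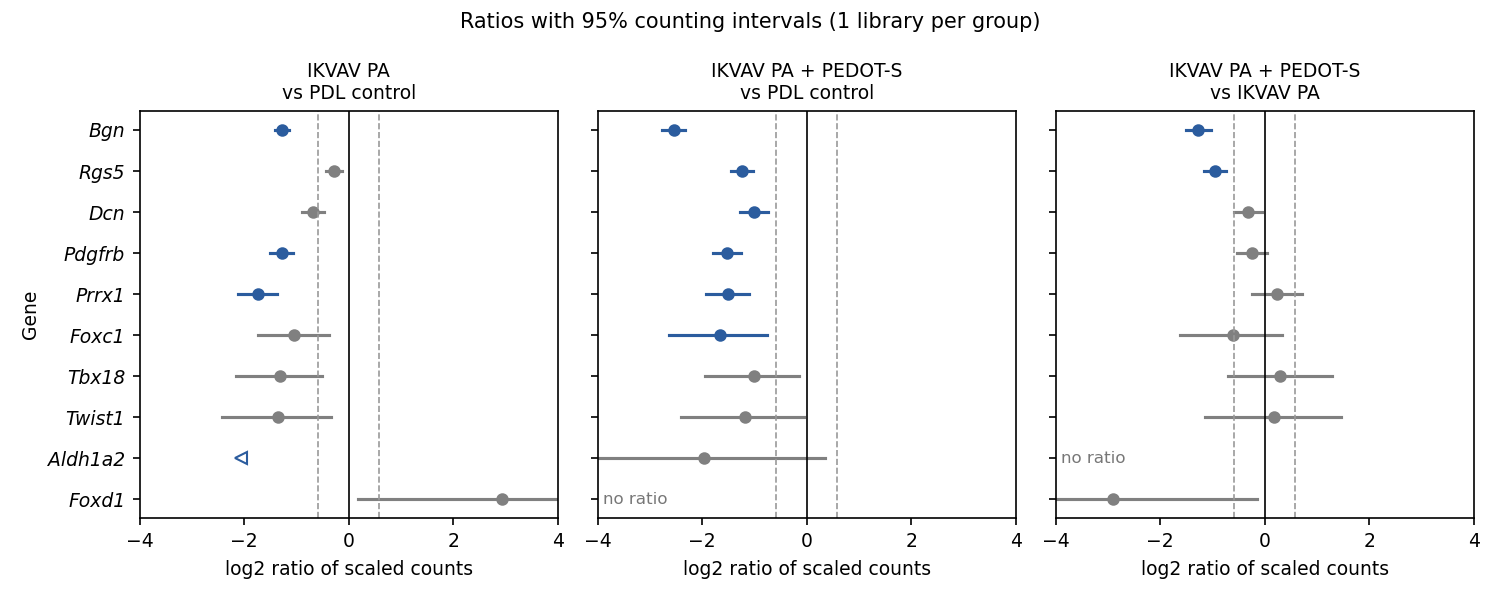
log2 ratio of scaled counts for each gene and comparison, with exact 95% counting intervals drawn out to 4 on either side. Blue marks genes lower beyond 1.5-fold (dashed lines), grey marks genes that did not pass it, and the open triangle is a bound for a gene with 0 counts. Genes taken as lower number 4, 6 and 2 in the order of the comparisons.

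Further genes of the same cell types gave a mixed picture. Of the 22 other meningeal fibroblast genes, 4 were lower in IKVAV PA and 5 in IKVAV PA + PEDOT-S, with none higher. Of those with a ratio, 12 were negative and 7 positive in IKVAV PA, and 11 and 9 in IKVAV PA + PEDOT-S, with medians of -0.13 and -0.18. Igfbp2, a binding protein for insulin-like growth factors, was at 97.6 CPM in the PDL control, 62.7 CPM in IKVAV PA and 56.4 CPM in IKVAV PA + PEDOT-S, and Vim, the filament protein vimentin shared with glia, at 198, 113 and 124 CPM. Both were lower in each scaffold library, whereas Nr2f2, a nuclear receptor also on the mural list, was at 43.2, 50.3 and 52.8 CPM and did not pass the bound. With the assumed variation 0 fibroblast genes stayed lower in IKVAV PA and 2 in IKVAV PA + PEDOT-S.

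Of the 20 other mural cell genes, 5 were lower in IKVAV PA and 8 in IKVAV PA + PEDOT-S. The 5 were Cspg4, Notch3, Mcam, Cnn1 and Acta2, which were also among the 8 beside Anpep, Tagln and Heyl, and all but Acta2 were named after their values were seen. Anpep, Tagln and Heyl stayed below 1 CPM, with 1, 6 and 6 counts in IKVAV PA + PEDOT-S against 11, 30 and 33 in the PDL control. Tagln shares 67.9% of its exonic bases with other genes, so its count is uncertain. Acta2, smooth muscle actin, was at 78.6 CPM in the PDL control library, 26.5 CPM in IKVAV PA and 9.99 CPM in IKVAV PA + PEDOT-S. Ebf1, a transcription factor, went the other way and was higher in IKVAV PA + PEDOT-S (log2 ratio 0.79, at 7.29 against 4.23 CPM). Itga8, an integrin chain, had log2 ratios of -0.16 in both. Medians over the mural genes with a ratio were -0.44 and -1.20. Of the mural genes, 2 and 5 stayed lower with the assumed variation, and Ebf1 did not stay higher.

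Transforming growth factor beta, whose activity decorin and biglycan can bind and limit, was looked at through 18 pathway genes. Of the 18, 7 were lower in each scaffold library and none higher, with medians of -0.31 and -0.28. The 4 most abundant did not pass the bound, among them Smad4 (79.3, 82.1 and 90.8 CPM in PDL control, IKVAV PA and IKVAV PA + PEDOT-S) and the receptor Tgfbr1 (log2 ratios 0.05 and 0.40). The lower ones included the ligand Tgfb1 (log2 ratios -1.11 and -3.25) and the receptor Tgfbr2 (-1.14 and -2.85), named after their values were seen. In the same order of libraries they had 87, 63 and 9 counts and 183, 130 and 25 counts. The more abundant ligand Tgfb2 stood at 22.4, 17.7 and 22.9 CPM and did not pass the bound. Under the assumed variation 2 and 6 stayed lower.

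Markers of other cell types moved in the same comparisons, and their part in the differences above was not tested. All 10 cell cycle genes were lower in both scaffold libraries, with summed levels of 144 CPM in the PDL control, 49.6 CPM in IKVAV PA and 46.9 CPM in IKVAV PA + PEDOT-S. Of the 9 oligodendrocyte precursor genes, which include Pdgfra and Cspg4, 5 were lower in each, and the sums were 114, 62.3 and 51.9 CPM. Of 10 astrocyte genes 6 and 3 were lower, with 1 higher in IKVAV PA + PEDOT-S (Gfap, named after its value was seen), and summed to 280, 208 and 213 CPM. Most of these sums came from Slc1a2, at 169, 161 and 153 CPM, which did not pass the bound. With the assumed variation the numbers lower in IKVAV PA and IKVAV PA + PEDOT-S were 6 and 7 for the cell cycle, 2 and 5 for oligodendrocyte precursor and 2 and 1 for astrocyte genes.

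The 14 endothelial genes summed to 9.89, 6.44 and 5.99 CPM in the same order. Some were near 0 and others well counted. The 4 most abundant were Kdr with 296, 241 and 127 counts, Egfl7 with 105, 148 and 108, Pecam1 with 112, 125 and 98, and Flt1 with 91, 115 and 25. The endothelial receptor gene Tie1 had 0 counts in all libraries, Cdh5, the endothelial cadherin, had 1, 2 and 2, and Cldn5, a tight junction protein of brain vessels, had 7, 4 and 6. Tie1, Cdh5 and Cldn5 were named after their values were seen. Of the 14, 2 were lower in IKVAV PA (Kdr and Slco1a4, a transporter of brain vessels) and 2 in IKVAV PA + PEDOT-S (Kdr and Flt1), with Slco1a4 named after its values were seen. Choroid plexus genes summed to 14.6, 8.18 and 17.0 CPM, of which Ttr had 8.49, 3.93 and 12.3 CPM. Against the PDL control, Ttr was lower in IKVAV PA and Aqp1 in IKVAV PA + PEDOT-S, and no choroid plexus gene was higher. Microglia genes summed to 6.06, 6.77 and 6.67 CPM. Neuron genes summed to 8281, 8367 and 8136 CPM, and none of the 12 passed the bound in any comparison.

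**Figure D4:**
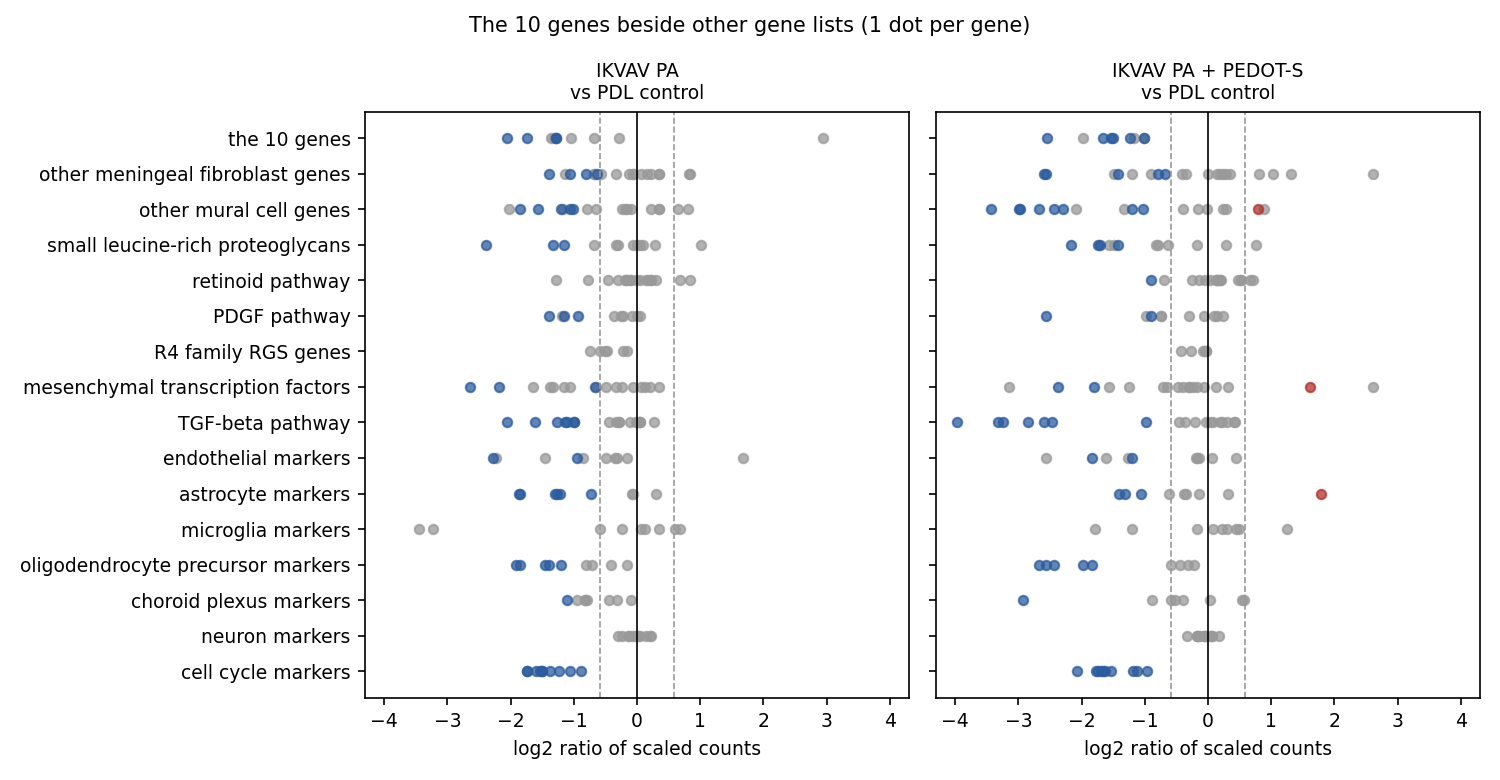
log2 ratio against the PDL control library for the 10 genes and for other gene lists, 1 dot per gene that has a ratio, with 0 counts set to the level of 3 counts. Blue and red mark genes lower and higher beyond 1.5-fold (dashed lines), and both panels share the PDL control library. All 10 cell cycle genes are blue in both panels and all 12 neuron genes are grey.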

How the data were processed

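Gene counts of 3 RNA-seq libraries, 1 per group, were analysed. The deposited values are whole-number counts per Ensembl gene. The submitters' processing notes name mm10 as the build and, as tools, STAR 2.7.5, DESeq2 1.14.1, cutadapt 4.2 and HTSeq 2.0.2, without roles. Annotation, strandedness and filters are not stated there. Per the labels' protocols a total RNA kit was used, whereas the molecule field reads polyA RNA.

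Of 54232 identifiers, 54165 were given symbols and positions by GENCODE M21 (GRCm38), and the remaining 67 took no more than 0.0126% of any library. Library sizes were scaled with TMM factors (1.01 in PDL control, 0.990 with PEDOT-S, 1.00 in IKVAV PA) from edgeR 4.0.16 under R 4.3.3, over genes with at least 1 CPM in a library. Ratios have exact (Clopper-Pearson) 95% binomial counting intervals, and levels exact Poisson intervals (scipy 1.17.1). With 1 library per group no p-value is given. The calculation was tested on simulated data. Merged exons gave lengths and shared bases, strand ignored, since without a strand setting reads of overlapping genes cannot be told apart.

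The members and all gene lists were chosen with earlier results of these data known. Named are the 10 members and at most the 4 most abundant genes of each of 15 other lists. Genes named otherwise are said to be. Also tried were total counts, size factors of DESeq2 1.42.0, other bounds and filters, thinned libraries and an assumed variation.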

Additional observations from a re-analysis of the deposited data

How the results depend on the processing

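No paired analysis was possible because each group has 1 library, and for the same reason no library could be left out. The number of the 10 genes that were lower, 4, 6 and 2 in the order IKVAV PA against PDL, IKVAV PA + PEDOT-S against PDL and PEDOT-S against IKVAV PA, was the same with DESeq2 size factors, with total counts and with libraries thinned to the smallest total. All 54 ratios of the genes recomputed with the other 2 scalings had the same sign, and none moved by more than 0.029 (log2). When the interval only had to leave out no difference, 9, 8 and 4 were lower and 1 (Foxd1) was higher for IKVAV PA. Most genes with at least 1 CPM also left out no difference, in 1 direction or the other. Their split by direction is not given, so these numbers have no matching share beside them. With a 2-fold bound the numbers lower were 4, 4 and 1. With an assumed variation of 20% per library the numbers were 2, 3 and 0. The cause of these moves is the width of the bound or interval itself.

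Over all 13884 genes with at least 1 CPM, 550, 584 and 326 lay beyond the bound in either direction, and the numbers below also take both directions together. With a 2-fold bound there were 228, 271 and 82, with only no difference left out 7912, 7930 and 8319, and with the assumed variation 159, 227 and 55. Without a filter there were 1330, 1329 and 1353, with at least 10 counts in all 1265, 1302 and 1300, and with at least 5 CPM in a library 245, 269 and 119. Depth limits the 5 genes below 1 CPM, which have at most 45 counts in a library.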
